A study of Homo sapiens with 22 samples.

Results

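The core splicing factors described here are 58 human genes for proteins of the spliceosome and close relatives of those proteins. They were chosen by gene name, from the families SNRP, SRSF, SF3A, SF3B, LSM and PRPF. Of 115 rows of the deposited gene table whose names match these families, 56 pseudogenes and SNRPN were left out, so that 58 of the table's 60240 genes remained. All 58 passed the filter on low counts. The libraries hold polyA RNA of haematopoietic progenitor cells derived from human embryonic stem cells of the established line H1. In the arm labelled DOX, given doxycycline, the cells expressed ectopic MYC, and in the arm labelled UT, without doxycycline, they did not. Cells were sampled every 2 days, in UT from day 10 to day 20 of culture and in DOX from day 12 to day 20, with 2 libraries in each of the 11 groups and 22 libraries in all. No group used here received doxycycline without ectopic MYC, so the drug and MYC cannot be told apart. The labels do not say on which day doxycycline was first given, or whether the line is 1 clone. Nor do they say that the 2 libraries of a group come from different cultures, and the p-values then reflect the spread of such pairs alone, which may be technical.

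Splicing removes introns from pre-mRNA and is carried out by small nuclear ribonucleoproteins (snRNPs), each a small nuclear RNA with its proteins. A ring of Sm proteins sits on most spliceosomal RNAs, a related ring of LSM proteins sits on the U6 RNA, the U1 snRNP recognises the start of an intron, and the U2 snRNP with the SF3A and SF3B complexes recognises the branch point. Most PRPF proteins serve in the tri-snRNP or the activated spliceosome, and SR proteins bind exons and help to choose splice sites. MYC is a transcription factor that binds the E-box CACGTG. In blood cells the family is best known because SF3B1 and SRSF2 are recurrently mutated in myeloid disease.

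Library totals ran from 24730517 to 53508590 estimated counts. Levels are given as CPM, counts relative to library size, after TMM scaling, which sets the libraries level on their typical genes. MYC stood at 126 and 121 CPM in the 2 UT libraries of day 12 and at 242 and 232 CPM in the 2 DOX libraries, and on day 20 at 34.6 and 28.7 against 49.6 and 28.9 CPM. The arms were apart on day 12 and overlapped on day 20, and the counts do not separate ectopic from endogenous transcripts. Mitochondrially encoded transcripts made up 10.2 and 10.9% of counts in UT on day 12, 55.9 and 53.5% on day 16 and 72.5 and 72.9% on day 20, against 10.4 and 12.2%, 20.97 and 19.5% and 55.3 and 58.8% in DOX. The arms were furthest apart in this share on day 16. All 7 progenitor markers, CD34 and RUNX1 among them, reached 1 CPM in all 22 libraries. That floor hides wide ranges among the 7. CD34 ran from 1.98 to 111 CPM over the UT libraries and from 5.09 to 84.8 CPM over the DOX libraries. KIT ran from 4.28 to 98.9 and from 9.14 to 95.4 CPM, and SPN from 427 to 869 and from 416.5 to 707 CPM. Of 5 pluripotency genes POU5F1, NANOG and SOX2 reached 1 CPM in none, LIN28A in 19 and DPPA4 in all 22. The summed level of 5 mast cell and eosinophil markers, led by PRG2, was 651 and 833 CPM in UT on day 12 and 16328 and 19663 CPM on day 20, against 210.1 and 255 and 8319 and 8926 CPM in DOX. The 5 neutrophil markers summed to 3337 and 3437 CPM in UT and 1684 and 1719 CPM in DOX on day 20. The 2 UT libraries of day 16 held 14.3 and 504 CPM of 4 fibroblast markers. The part of these markers in the results below was not tested.

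Averaged over the 5 shared days, splicing factors were more often higher than lower with DOX. Of the 58, 33 rose, 4 fell and 21 did not pass the test (edgeR quasi-likelihood test, adjusted p under 0.05 over 20115 genes). Of all genes tested, 29.8% were called higher and 23.0% lower, against 56.9% and 6.9% of the splicing factors. Their median log2 fold change was 0.20, beside 0.08 over all genes tested. In such bulk samples, fewer cells of a type and less RNA per cell cannot be told apart. The counts depend on the scale: with library sizes alone, which count the mitochondrial transcripts, 55 and 2 were called higher and lower, beside 57.6% and 8% of all genes. With library sizes that leave those transcripts out the counts were 42 and 2, beside 33.6% and 17.9%. The first of these moved the median of all genes from 0.08 to 0.60, and the second to 0.16. Both shifts are upward, so these 2 scalings put falls to a harder test than rises. DESeq2 size factors moved the median down, to 0.04. Of the 33 rises, 29 kept their call and direction under every scaling, filter and tool tried and without any 1 library, and of the 4 falls 2 did. The exceptions were LSM11, SF3B2, SRSF2, SRSF6, PRPF3 and PRPF6. With either the first DOX library of day 18 or that of day 20 left out, 2 fell in place of 4. Days 12 and 14 taken alone, which are not part of the tally of kept calls, gave 8 and 0, beside 14.2% and 10.8% of all genes.

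**Figure D1:**
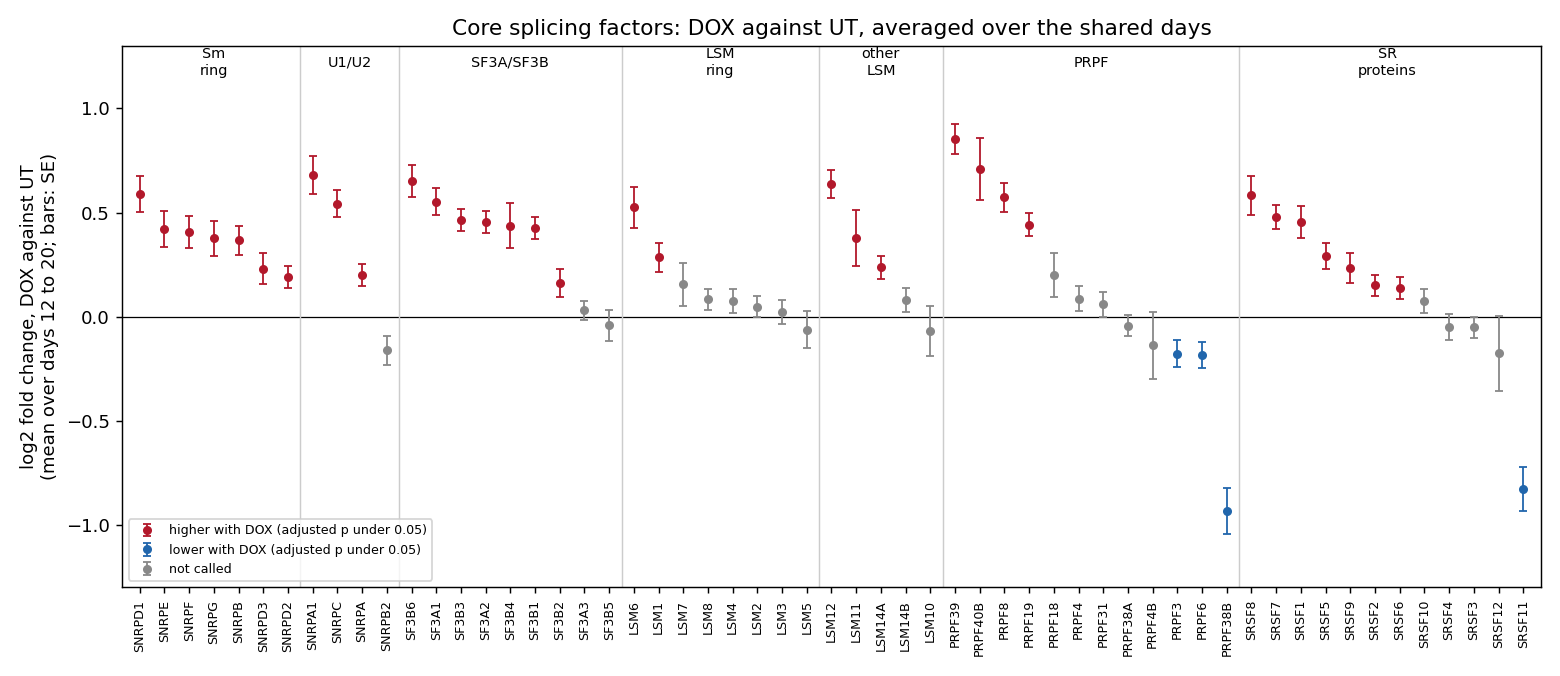
Log2 fold change of DOX against UT, averaged over days 12 to 20, for splicing factors by role, with SE, from TMM-scaled counts. All 7 Sm ring genes lie above 0 and were called, while PRPF38B (-0.93) and SRSF11 (-0.83) lie far below the rest.

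The stretches upstream of 4 genes are printed here because the results turn on these genes and because the E-box is the site that MYC is known to bind. SF3B1 was picked after its match was seen, SNRPA1 as the most raised snRNP protein, and PRPF38B and SRSF11 as the genes that fell most. They come from RefSeq promoters of build GRCh38.p14, are written 5′ to 3′ on each gene's own strand and stop before the annotated transcript. Capitals mark CACGTG, or CACGCG and its reverse complement CGCGTG. The regions are chr2:197435094-197435343 (minus strand), chr15:101295283-101295498 (minus), chr1:108692060-108692309 (plus) and chr1:70205446-70205681 (plus).
SF3B1: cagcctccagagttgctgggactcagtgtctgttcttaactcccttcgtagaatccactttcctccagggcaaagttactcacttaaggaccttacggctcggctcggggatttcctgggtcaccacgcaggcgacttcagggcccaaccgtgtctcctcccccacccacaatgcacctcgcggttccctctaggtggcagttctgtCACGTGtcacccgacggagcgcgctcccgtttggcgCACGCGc
SNRPA1: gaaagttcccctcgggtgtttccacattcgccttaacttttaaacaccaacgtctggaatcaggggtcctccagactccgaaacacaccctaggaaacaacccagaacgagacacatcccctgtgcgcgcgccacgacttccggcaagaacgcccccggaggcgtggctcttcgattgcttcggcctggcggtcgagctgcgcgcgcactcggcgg
PRPF38B: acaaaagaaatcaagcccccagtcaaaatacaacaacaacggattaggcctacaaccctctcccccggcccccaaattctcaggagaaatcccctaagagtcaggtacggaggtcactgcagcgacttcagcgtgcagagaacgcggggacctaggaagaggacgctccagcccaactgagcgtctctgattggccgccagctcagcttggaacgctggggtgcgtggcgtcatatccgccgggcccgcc
SRSF11: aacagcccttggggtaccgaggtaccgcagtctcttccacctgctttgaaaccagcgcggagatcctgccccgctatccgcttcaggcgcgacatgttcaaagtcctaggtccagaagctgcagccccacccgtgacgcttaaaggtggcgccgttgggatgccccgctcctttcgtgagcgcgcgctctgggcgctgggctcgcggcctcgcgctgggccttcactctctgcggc
Of the 58 genes, 48 had a promoter entry, and the 250 bases before the start were searched on both strands. The E-box CACGTG was in 1 of the 48 (2.08%), SF3B1 (position -43 from the transcript start of that entry), against 7.73% of 27305 entries for all genes. CACGCG was in 11 of the 48 (22.9%), against 11.5% of all entries. Of those 11 genes, 5 rose, 1 fell and 5 did not pass in the average, beside 56.9% higher and 6.9% lower of the 58. Of all genes tested 29.8% were called higher and 23.0% lower. A link between the motif and the calls was not tested. The 2 motifs do not overlap in the printed sequences, and the other 3 sequences hold neither. A match is a description of letters, and binding was not measured.

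The Sm proteins form the ring of the spliceosomal snRNPs other than U6, and all 7 rose with DOX, by a median log2 of 0.38. SNRPD1 (chromosome 18, 21612267 to 21633524, plus strand, hg38 with GENCODE 29) held 75.2 and 80.2 CPM in UT and 107 and 105 CPM in DOX on day 12. On day 18 it held 61.6 and 74.3 against 119.5 and 119 CPM. The DOX libraries were above both UT libraries on both days. On day 14 the UT pair, 112 and 162 CPM, spanned the DOX pair, 159.8 and 142 CPM. Its log2 change in the average came to 0.59 (SE 0.09, adjusted p = 1.5e-05). SNRPE was next (0.42, SE 0.09, adjusted p = 4.6e-04), then SNRPF (0.40, SE 0.08, adjusted p = 2.1e-04), though pseudogene rows of SNRPF held 9.04% as many counts as the gene and its value is uncertain. On day 14 the ring's median was 0.0039 with 0 called, and SNRPG, SNRPF and SNRPD2 had both DOX libraries below both UT libraries, as for SNRPG with 95.1 and 104 CPM in UT and 78.5 and 69.7 in DOX. In the average SNRPG rose by 0.38 (SE 0.08) and SNRPB by 0.37 (SE 0.07). The smallest rises were those of SNRPD3 (0.23, SE 0.07) and SNRPD2 (0.19, SE 0.05). SNRPB shares 20% and SNRPD3 12% of its exonic bases with other genes of the same strand, so their values are less certain.

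Among proteins specific to the U1 and U2 snRNPs, 3 of 4 rose. SNRPA1, the U2 A′ protein (chromosome 15, 101281510 to 101295282, minus strand), was above in both DOX libraries on all 5 days. It held 40.1 and 40.1 CPM in UT and 50.6 and 48.5 CPM in DOX on day 12. The gap was widest on day 16, with 27.5 and 27.2 against 75.6 and 74.1 CPM, and on day 20 the pairs were 17.5 and 24.8 and 44.4 and 29.04 CPM. In the average its log2 change came to 0.68 (SE 0.09, adjusted p = 4.5e-06). SNRPC, the U1 C protein that helps U1 bind the 5′ splice site, rose by 0.54 (SE 0.06), and SNRPA, the U1 A protein, by 0.20 (SE 0.05). SNRPB2, the U2 B″ protein and partner of SNRPA1, did not pass the test (-0.16, SE 0.07, adjusted p = 0.062).

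The SF3A and SF3B complexes hold the U2 snRNP at the branch point, and 7 of their 9 genes rose, by a median log2 of 0.44. SF3B6, the subunit that lies at the branch point adenosine (chromosome 2, 24067584 to 24076443, minus strand), had the largest value of the 9, 0.65 (SE 0.08, adjusted p = 1.3e-06). It overlapped between the arms on day 14 (61.9 and 89.3 CPM in UT, 71.3 and 61.5 in DOX). On day 16 it held 45.8 and 36.2 against 75.9 and 93.9 CPM and on day 20 15.6 and 17.96 against 39.2 and 32.2 CPM, with both DOX libraries higher. SF3A1 (0.55, SE 0.07, adjusted p = 1.2e-06), SF3B3 (0.46, SE 0.05), SF3A2 (0.45, SE 0.05) and SF3B4 (0.44, SE 0.11) also rose.

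SF3B1, the largest SF3B subunit and the one most often mutated in myelodysplasia, is the gene whose promoter holds the E-box (chromosome 2, 197389784 to 197435091, minus strand). It held 358 and 371 CPM in UT and 365 and 378 CPM in DOX on day 12, where the pairs overlapped. On day 18 it held 189 and 192 against 357 and 379 CPM, and on day 20 174 and 147 against 271 and 246 CPM. From day 12 to day 20 it fell in both arms, with a log2 change of -1.18 in UT and -0.52 in DOX. In the average its log2 change came to 0.43 (SE 0.05, adjusted p = 2.0e-06). SF3B2 had a small value, 0.16 (SE 0.07), whose call was lost in several alternatives, and SF3A3 (0.03, SE 0.05) and SF3B5 (-0.04, SE 0.07) did not pass.

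The LSM ring holds LSM2 to LSM8 in the nucleus, with LSM1 in place of LSM8 in the cytoplasmic ring that serves mRNA decay. It moved less: 2 of 8 genes rose and 0 fell (25% and 0%), with a median log2 of 0.08. Of all genes tested 29.8% were called higher and 23.0% lower, with a median of 0.08. LSM6 rose by 0.52 (SE 0.10, adjusted p = 1.7e-04) and LSM1 by 0.28 (SE 0.07, adjusted p = 0.0019). LSM1 changed sides: it held 33.7 and 33.8 CPM in UT against 26.7 and 23.9 in DOX on day 14, and 18.8 and 20.4 against 37.8 and 36.1 CPM on day 18. LSM1 shares 38.5% of its exonic bases with genes of the opposite strand, and the counting's strand setting is not given in the sources used here. LSM3 and LSM5 did the same, lower on day 14 (-0.61 and -0.62) and higher on day 20 (0.40 and 0.69), though each of these calls was lost without 1 library or another. The 6 LSM ring genes that did not pass in the average lay between -0.06 (LSM5) and 0.15 (LSM7).

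Of the 5 other LSM genes, 3 rose. LSM12 (chromosome 17, 44034635 to 44067619, minus strand) was higher in both DOX libraries on all 5 days, with 42.1 and 42.5 CPM in UT and 67.2 and 68.4 CPM in DOX on day 14 and 29.9 and 24.3 against 50.8 and 60.2 CPM on day 16. Its log2 change in the average came to 0.64 (SE 0.07, adjusted p = 2.3e-07), and a pseudogene row held 2.25% as many counts. LSM14A, a P-body protein, rose by 0.24 (SE 0.06). LSM11, a part of the U7 snRNP that matures histone mRNA, rose by 0.38 (SE 0.14), a call lost without the first UT library of day 14 or of day 16. LSM10, its U7 partner, did not pass (-0.07, SE 0.12), nor did LSM14B (0.08, SE 0.06).

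Of the 13 PRPF genes, 4 rose, 3 fell and 6 did not pass. These shares, 30.8% higher and 23.1% lower, lie near the 29.8% and 23.0% of all genes tested. PRPF39, a U1-associated protein (chromosome 14, 45084099 to 45116282, plus strand), had the largest rise of the 58, 0.85 (SE 0.07, adjusted p = 1.6e-08). It held 36.5 and 39.2 CPM in UT and 45.98 and 48.98 CPM in DOX on day 12, and 9.50 and 16.1 against 33.4 and 33.8 CPM on day 20, with both DOX libraries higher on all 5 days. PRPF40B, another U1-associated protein at a low level, rose by 0.71 (SE 0.15, adjusted p = 5.2e-04), with 1.71 and 3.27 CPM in UT and 6.49 and 4.31 CPM in DOX on day 18, and shares 48.7% of its exonic bases with opposite-strand genes. PRPF19, the ubiquitin ligase that gives the PRP19 complex its name, rose by 0.44 (SE 0.06, adjusted p = 3.0e-06).

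PRPF8, the large U5 protein at the heart of the spliceosome (chromosome 17, 1650629 to 1684882, minus strand), rose by 0.57 (SE 0.07, adjusted p = 1.6e-06) and was called on days 14 and 16. It held 98.6 and 71.6 CPM in UT and 210.0 and 257 CPM in DOX on day 14. On day 20 the pairs were 49.6 and 50.4 and 57.8 and 58.5 CPM, close together though without overlap. The 6 PRPF genes that did not pass in the average lay between -0.14 (PRPF4B) and 0.20 (PRPF18).

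PRPF38B fell furthest of the 58 and had the widest range of levels. It encodes a relative of the tri-snRNP-associated protein PRPF38A (chromosome 1, 108692323 to 108701803, plus strand). It held 84.2 and 97.8 CPM in UT and 104 and 119.6 CPM in DOX on day 12. By day 16 it held 405 and 699 against 132 and 167 CPM, and by day 20 1227 and 1618 against 665 and 854 CPM. Both arms climbed, and the DOX pair was below the UT pair on days 14, 16, 18 and 20. In the average its log2 change came to -0.93 (SE 0.11, adjusted p = 1.2e-06). The day 20 difference (-0.91, SE 0.25) lost its call without the second UT or the first DOX library of that day, at -0.69 and -0.73, and was 0.0059 with library sizes alone. PRPF6 (-0.19, SE 0.06) and PRPF3 (-0.18, SE 0.06), both tri-snRNP proteins, were called lower with TMM scaling but were at 0.35 each with library sizes alone and lost the call when these left out mitochondrial transcripts.

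Of the 12 SR proteins 7 rose and 1 fell. SRSF8 (chromosome 11, 95067197 to 95071224, plus strand), a retrocopy relative of SRSF2 whose reads may be split with it, rose by 0.58 (SE 0.09, adjusted p = 3.7e-05). SRSF7 was higher in both DOX libraries on all 5 days, with 66.5 and 76.6 CPM in UT and 127 and 144 CPM in DOX on day 20, and rose by 0.48 (SE 0.06, adjusted p = 8.7e-07). SRSF1, the founding SR protein, rose by 0.45 (SE 0.08), but 60.7% of its exonic bases lie in other annotated genes. SRSF5 rose by 0.29 (SE 0.06) and SRSF9 by 0.23 (SE 0.07). SRSF2 (0.15, SE 0.05) and SRSF6 (0.14, SE 0.05) had the smallest called values, and both lost the call in an alternative. SRSF3, SRSF4, SRSF10 and SRSF12 did not pass, at -0.18 (SRSF12) to 0.08 (SRSF10).

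SRSF11, an SR-related protein also known as p54 (chromosome 1, 70205682 to 70253052, plus strand), was the one SR gene that fell. It held 215 and 239 CPM in UT and 239.9 and 258 CPM in DOX on day 12, 1603 and 2310.3 against 647 and 886 CPM on day 18 and 1909.7 and 2794 against 1098 and 1526 CPM on day 20. As with PRPF38B, both arms climbed and the DOX pair stayed below the UT pair from day 14 on. In the average its log2 change came to -0.83 (SE 0.10, adjusted p = 2.3e-06). On day 20 it was -0.84 (SE 0.23), not called without the second UT library (-0.54) or the first DOX library (-0.62) of that day, and 0.069 with library sizes alone.

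No splicing factor passed the test on day 12, and most of the calls came from day 16 on. On day 12 edgeR called 0 of the 58 higher and 0 lower, beside 0.845% and 2.26% of all genes tested. At an unadjusted p under 0.05, 8 were higher and 0 lower, beside 6.88% and 7.58% of all genes, and DESeq2 called 2 higher and 0 lower, beside 2.16% and 4.84%. The estimate was above 0 for 51 of the 58. On day 14, 7 rose and 4 fell, beside 15.3% and 11.7% of all genes, and library sizes alone gave 6 and 2 (all genes 13.1% and 10.7%) while those without mitochondrial transcripts gave 5 and 8 (all genes 11.7% and 12.1%). The 7 were PRPF8 (1.46), SF3A1 (0.91), LSM11 (0.86), SF3B3 (0.73), LSM12 (0.68), PRPF19 (0.42) and SF3A2 (0.37). LSM11, PRPF19 and SF3A2 each lost the call without one or another library of the day. The 4 were LSM5, LSM3, LSM1 and SRSF5 (-0.41), and the count of falls was 0 without the second DOX library of that day, 2 without the first, 1 without the second UT library and 7 without the first.

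On day 16, 27 rose and 3 fell, beside 21.2% and 18.7% of all genes (53 and 2 with library sizes alone, 32 and 3 without mitochondrial transcripts, beside 51.1% and 4.99% and 23.1% and 14.8% of all genes). SF3A and SF3B led, with 7 of 9 called higher. On day 18, 24 rose and 5 fell, beside 19.8% and 16.0% of all genes (53 and 1, and 38 and 2, on the same scales, beside 53.7% and 3.21% and 27.3% and 9.75%). Without the first DOX library of day 18, 12 rose and 2 fell, without the first UT library 14 rose, and without the second UT library 3 fell. On day 20, 22 rose and 4 fell, beside 15.9% and 11.9% (52 and 0, and 37 and 2, beside 53% and 2.17% and 24% and 6.74%). Without the first DOX library of day 20, 9 rose and 1 fell, and without the second UT library 0 fell. Smaller shares of all genes were called too in each of these fits, which left 1 library in a group. The median log2 of the 58 was 0.27 without the first DOX library of day 18, beside 0.25 with all libraries. Without the first DOX library of day 20 it was 0.24, beside 0.26. LSM1, LSM3, LSM5, SRSF5 and PRPF38A were called higher on one day and lower on another. Of the 33 genes that rose in the average, 22 had an estimate above 0 on all 5 days, and of the 4 that fell, 0 were below 0 on all 5.

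**Figure D2:**
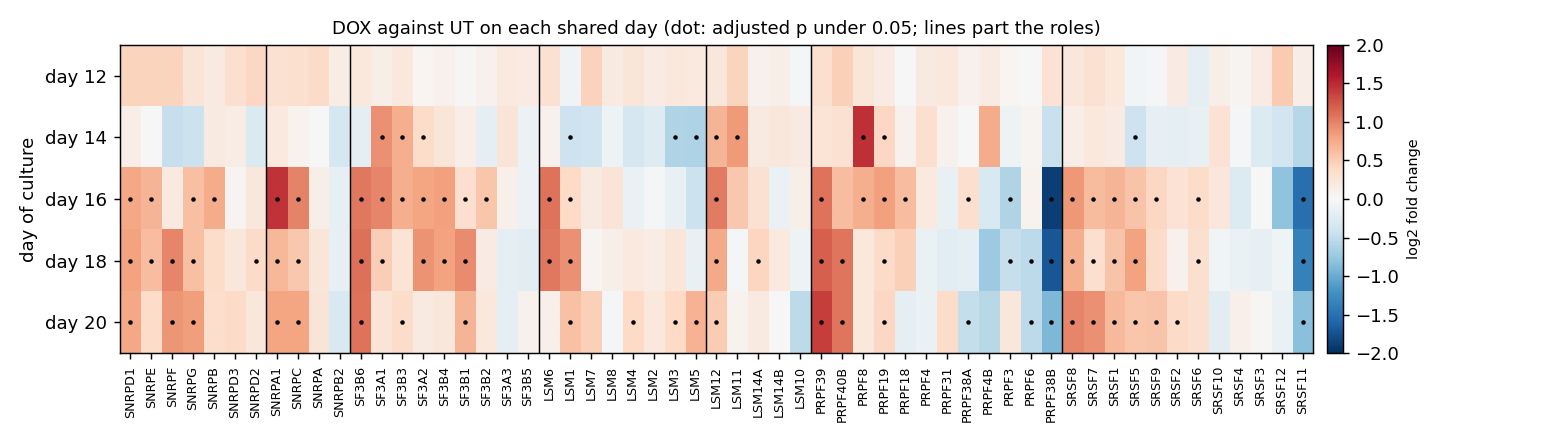
Log2 fold change of DOX against UT on each shared day for splicing factors by role, from TMM-scaled counts. Over all 58, day 12 holds 0 calls, and day 16 holds 27 higher and 3 lower, a split that was 53 and 2 with library sizes alone.

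**Figure D3:**
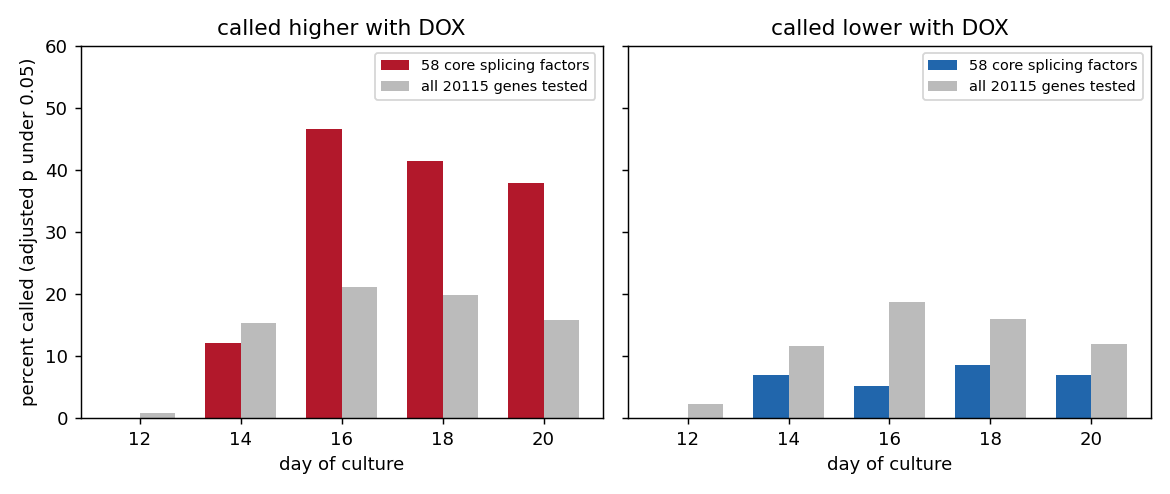
Percent of the 58 splicing factors, and of all genes tested, called higher or lower with DOX on each day with TMM scaling. The splicing factors' higher share lies above that of all genes from day 16 to day 20, where the genes numbered 27, 24 and 22, against 53 and 2, 53 and 1 and 52 and 0 higher and lower with library sizes alone.

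Whether the difference between the arms itself changed was tested as the mean over days 16 to 20 minus the mean over days 12 and 14. The days were split by the mitochondrial share, known from earlier results of these data. In UT that share averaged 13.7% on day 14 and 54.7% on day 16. The difference between the arms shifted upward for 18 genes and downward for 6, beside 14.1% and 10.8% of all genes tested. The counts with library sizes alone were 52 and 0, beside 62.4% and 0.915% of all genes, and without mitochondrial transcripts 32 and 3, beside 24% and 4.88%. SF3B6 had the largest upward shift (1.07, SE 0.16, adjusted p = 7.9e-05), then PRPF39 (0.92, SE 0.14), SRSF5 (0.88, SE 0.13) and LSM1 (0.87, SE 0.14). Among the downward shifts were those of PRPF38B (-1.43, SE 0.23, adjusted p = 1.6e-04), SRSF11 (-1.01, SE 0.21), PRPF4B (-0.99, SE 0.33), PRPF8 (-0.47, SE 0.14) and SF3A3 (-0.32, SE 0.09). With library sizes alone PRPF8 and SF3A3 turned to 0.50 and 0.65. The count of downward shifts was 3 without the first UT library of day 12 or the second DOX library of day 14. The calls of LSM3, LSM6, SNRPD1, SRSF1, SRSF7, PRPF4B, PRPF8 and SF3A3 were each lost without 1 or another single library. PRPF4B, a kinase of splicing proteins, had a wide pair in UT on day 20, 76.6 and 211 CPM.

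Levels also moved along the culture in each arm. From day 12 to day 20 in UT, 19 genes rose and 19 fell, beside 27.6% and 32.9% of all genes tested, and in DOX 16 rose and 14 fell, beside 26.7% and 29.7%. With library sizes alone the counts were 2 and 56 in UT (all genes 5.68% and 72.7%) and 3 and 48 in DOX (all genes 8.9% and 57.8%), and without mitochondrial transcripts 11 and 31 (all genes 19.7% and 40.3%) and 13 and 21 (all genes 22.5% and 31.1%). The median of all genes went from -0.20 to -2.35 in UT and from -0.08 to -1.26 in DOX with library sizes alone. The 2 courses share no library. Called in both arms, 13 genes were higher and 13 lower on day 20 (22.4% and 22.4%), beside 21.4% and 24.8% of all genes tested. Opposite calls numbered 0, beside 0.457% of all genes. From day 10 to day 20 in UT, 14 rose and 26 fell, beside 28.1% and 34.2% of all genes (2 and 56 with library sizes alone, 8 and 36 without mitochondrial transcripts, beside 7.22% and 71.8% and 21% and 41.1%).

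With TMM scaling the SF3 genes fell most often over the culture, 6 of 9 in each arm. This ranking depends on the scale. With library sizes alone 56 of the 58 fell in UT and 48 in DOX, beside 72.7% and 57.8% of all genes. SF3A1 went from 76.8 and 76.5 CPM to 17.6 and 20.7 CPM in UT (log2 -1.998, SE 0.15) and from 84.04 and 81.9 to 25.5 and 20.4 CPM in DOX (-1.85, SE 0.15). SF3B3 fell too, with a log2 change of -1.47 in UT and -1.32 in DOX. PRPF8 fell furthest of the 58, from 273 and 278 to 49.6 and 50.4 CPM in UT (-2.46, SE 0.17) and from 321 and 332 to 57.8 and 58.5 CPM in DOX (-2.49, SE 0.16). In these 3 genes the day 20 libraries of each arm lay below all its day 12 libraries.

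Some genes fell in both arms with a smaller value in DOX. SF3B6 was at -1.39 (SE 0.19) in UT and -0.51 (SE 0.17) in DOX, and PRPF39 at -1.56 (SE 0.17) and -0.50 (SE 0.16). The DOX calls were lost without the second DOX library of day 12 for PRPF39 (-0.48), and without the first of day 12 (-0.49) or the second of day 20 (-0.40) for SF3B6. SNRPA1 fell in UT (-0.92, SE 0.21) and did not pass in DOX (-0.43, SE 0.20, adjusted p = 0.076). The difference between the 2 courses, day 20 minus day 12 in DOX less that in UT, was tested in the same fit, a contrast added after the data were seen. It was 1.06 (SE 0.23, adjusted p = 0.007) for PRPF39, a call that kept its direction and its side of the threshold under every alternative run. It was 0.88 (SE 0.25, adjusted p = 0.036) for SF3B6, a call lost (adjusted p 0.053 to 0.15) when any 1 of the 8 libraries but the second of DOX on day 20 was left out. SNRPA1 did not pass (0.49, SE 0.29, adjusted p = 0.32), and with library sizes alone it did (1.51, adjusted p = 0.0014). Of the 58, 4 had a higher and 2 a lower value in DOX by this test, beside 5.62% and 3.34% of all genes tested, so the shares lie near those of all genes. The others were SF3B1 (0.66, SE 0.17) and SRSF7 (0.62, SE 0.18), higher, and PRPF38B (-1.199, SE 0.35) and PRPF38A (-0.56, SE 0.16), lower. Each of these 4 lost the call without any of at least 6 of the 8 libraries. PRPF38A was at 0.43 with library sizes alone. The counts were 1 and 0 without any 1 library of day 12 in either arm, and with library sizes alone 46 and 0, beside 46.9% and 0.497% of all genes.

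Of the 19 genes that climbed in UT and the 16 in DOX, the LSM ring held 5 in each arm, with 1 of its 8 genes lower in UT and 0 in DOX. The PRPF genes held 6 in UT and 3 in DOX, the SR proteins 3 and 4, the Sm ring 2 and 2, the U1 and U2 proteins 2 and 2, and SF3A and SF3B 1 and 0. SNRPA, the U1 A protein, went from 46.4 and 45.8 to 95.1 and 87.2 CPM in UT (0.98, SE 0.12), and SRSF3 from 174 and 175 to 374 and 344 CPM (1.04, SE 0.12). LSM4 went from 39.9 and 35.3 to 105 and 86.3 CPM in UT (1.35, SE 0.13) and from 47.6 and 41.7 to 117 and 136 CPM in DOX (1.502, SE 0.13). LSM5 was at 1.26 (SE 0.20) in UT and 1.76 (SE 0.20) in DOX, LSM3 at 1.23 (SE 0.14) and 1.41 (SE 0.13), and LSM2 at 1.07 (SE 0.12) and 1.11 (SE 0.11). The direction rests on the scaling: with library sizes alone LSM2, LSM3, LSM4, LSM5, SNRPA and SRSF3 were at -1.09, -0.93, -0.81, -0.92, -1.18 and -1.12 in UT, and LSM2 at -0.078 in DOX. PRPF38B was at 3.97 (SE 0.28) in UT and 2.77 (SE 0.26) in DOX, and SRSF11 at 3.37 (SE 0.25) and 2.40 (SE 0.24).

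**Figure D4:**
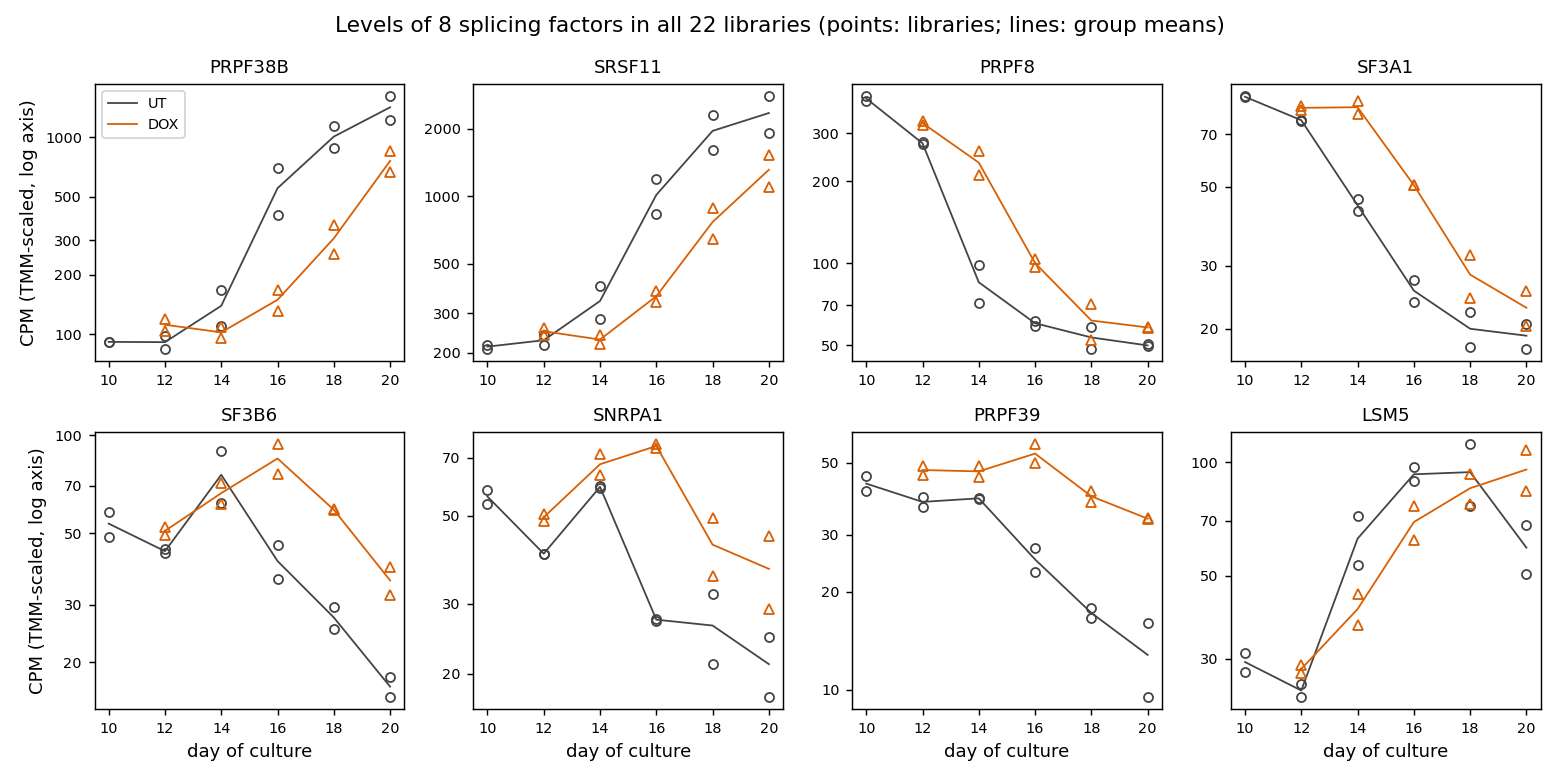
TMM-scaled CPM by day of culture for splicing factors named in the text, 1 point a library, UT and DOX. PRPF8 falls in both arms, and PRPF38B climbs in both, to 1227 and 1618 CPM in UT and 665 and 854 CPM in DOX.

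**Figure D5:**
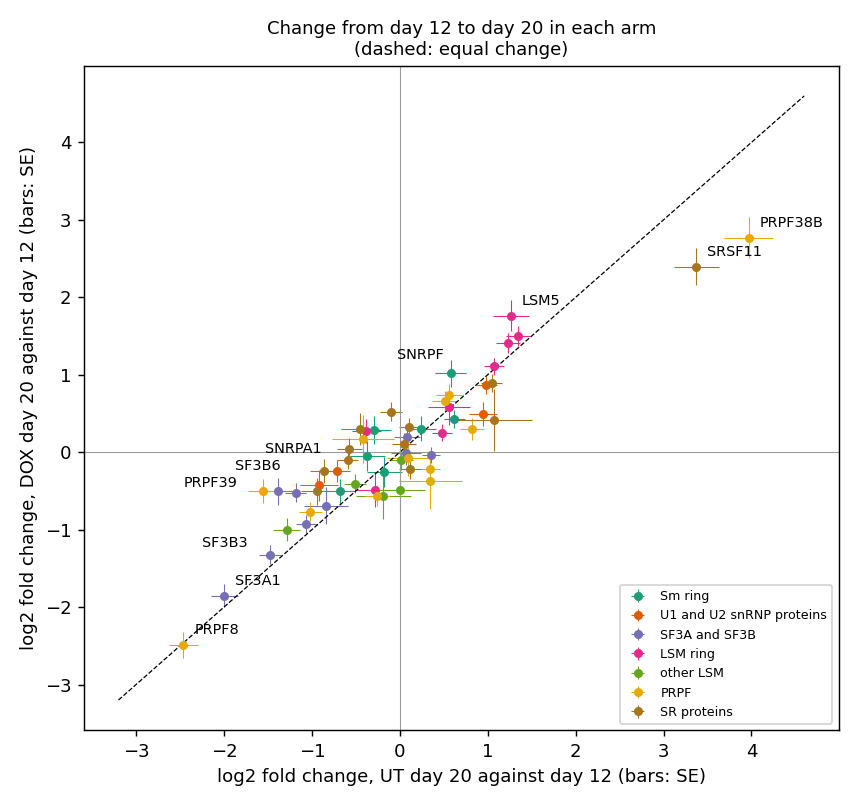
Log2 change from day 12 to day 20 in DOX against that in UT for splicing factors, with TMM scaling. With this scaling 13 of all 58 genes were higher in both and 13 lower in both, shares of 22.4% each beside 21.4% and 24.8% of all genes tested, and with library sizes alone 2 and 56 in UT and 3 and 48 in DOX were called higher and lower.

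Scaled by exon length as well as library size (RPKM), the mean level over all libraries was highest for SRSF11 (96.7), SRSF1 (80.3), PRPF38B (73.99), SRSF2 (71.98) and SNRPB (63.4). It was lowest for SRSF12 (0.346), PRPF40B (0.491) and LSM11 (1.40). These ranks moved along the culture. In UT on day 12 SRSF11 (26.8 RPKM) ranked 13 and PRPF38B (15.6) 31 of the 58, with SRSF1 (84.3) and SNRPB (57.3) highest, and in UT on day 20 SRSF11 (278) and PRPF38B (245) ranked 1 and 2. Between the highest and the lowest group mean, PRPF38B spanned 15.6-fold, SRSF11 11.1-fold and PRPF8 8.04-fold, and LSM14B 1.19-fold. Exonic bases shared with other genes make SRSF1, PRPF40B, PRPF18 (48.5%), SRSF9 (46.2%), LSM1 and SRSF2 (36.7%) uncertain. The same holds, with smaller shares, for PRPF31 (32%), SNRPD3 (24.6%) and SNRPB (20%).

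Among other spliceosomal genes, 6 lists of neighbouring pathways were counted in the averaged comparison, beside the 29.8% higher and 23.0% lower of all genes. These shares of all genes were 57.6% and 8% with library sizes alone. They were 33.6% and 17.9% with library sizes that left out mitochondrial transcripts. Of 27 hnRNP proteins, RNA-binding proteins that coat pre-mRNA, 23 rose and 0 fell (median log2 0.36), with 24 and 0 when library sizes left out mitochondrial transcripts and 27 and 0 with library sizes alone. HNRNPF (0.92, SE 0.07, adjusted p = 7.1e-09), HNRNPA1 (0.68, SE 0.07), HNRNPR (0.67, SE 0.09) and HNRNPDL (0.67, SE 0.07) were among them. Of 18 genes for assembly of the Sm core, 12 rose and 1 fell (median 0.41), and 18 and 0 with library sizes alone. Without mitochondrial transcripts in the library sizes the counts stayed at 12 and 1. CLNS1A, the chaperone that holds Sm proteins (0.93, SE 0.06, adjusted p = 1.2e-09), PRMT5, which methylates them (0.77, SE 0.06), GEMIN5, which binds the snRNA (0.76, SE 0.08), and SMN2 (0.72, SE 0.15) rose, SMN2 being uncertain because SMN1 is near-identical.

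Proteins of the minor spliceosome, which removes a small class of introns, went the other way: of 11, 2 rose and 8 fell (median -0.38). With library sizes alone, though, 3 rose and 1 fell, beside 57.6% and 8% of all genes. When library sizes left out mitochondrial transcripts the counts stayed at 2 and 8, beside 33.6% and 17.9%. ZRSR2, which recognises their 3′ splice site, fell most (-1.01, SE 0.10, adjusted p = 1.1e-07), then PDCD7 (-0.51, SE 0.09), SNRNP48 (-0.50, SE 0.10) and ZCRB1 (-0.47, SE 0.08). With library sizes alone PDCD7, SNRNP48 and ZCRB1 were at 0.019, 0.029 and 0.063. Of 20 SR kinases and SR-related proteins, 3 rose and 9 fell (median -0.10), against 16 and 1 with library sizes alone. Without mitochondrial transcripts in the library sizes 4 rose and 7 fell. SREK1 (-0.93, SE 0.12, adjusted p = 2.6e-06), SRPK2, a kinase of SR proteins (-0.71, SE 0.14), SRRM1 (-0.49, SE 0.15) and SON (-0.46, SE 0.09) fell, the last 2 reaching 0.037 and 0.070 with library sizes alone, and SRRM2 did not pass (0.02, SE 0.07).

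Of 29 other snRNP and U2-associated proteins, 11 rose and 7 fell (median 0.12). The counts were 26 and 2 with library sizes alone, beside 57.6% and 8% of all genes. Without mitochondrial transcripts they were 17 and 3, beside 33.6% and 17.9%. DDX46, a helicase of the U2 snRNP (-0.94, SE 0.11, adjusted p = 1.6e-06), RBM25 (-0.89, SE 0.13) and LUC7L3 (-0.60, SE 0.12) fell and SMNDC1 rose (0.41, SE 0.09). Of 24 PRP19-complex and catalytic-step proteins, 12 rose and 7 fell (median 0.18), against 21 and 1 with library sizes alone and 13 and 4 without mitochondrial transcripts. DHX15, the helicase that takes spliceosomes apart, rose (0.79, SE 0.06, adjusted p = 4.8e-09), as did WBP11 (0.49, SE 0.06), while the second-step factors SLU7 (-0.76, SE 0.07) and CDC40 (-0.50, SE 0.12) fell, CDC40 being at 0.026 with library sizes alone.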

How the data were processed

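Poly(A) RNA of 22 libraries was measured. Per the submitters' processing notes, the authors used Trim Galore 0.6.5, STAR and Salmon with hg38 (annotation release and strand setting: not given in the sources used here). Expected counts per gene, as deposited (88.3% whole), were rounded here. Groups follow the labels. In R 4.3.3, edgeR 4.0.16 scaled by TMM, dropped low genes (filterByExpr, minimum count 10; 20115 of 60240 genes kept) and fitted 1 coefficient per arm and day (11 residual degrees of freedom); p-values are Benjamini-Hochberg adjusted over all genes, and called means under 0.05. SE is the log2 fold change over the root of F. RPKM used GENCODE 29 exon lengths, and sequences came from RefSeq. Alternatives were other scalings, no filter, DESeq2 1.42.0, a replicate block, fewer days and leaving out each library. All members could be named, but 1 gene is not reported here by itself; of each pathway list, up to 4 called genes with the largest change and the most abundant. Members, lists and the split of the days into early and late were chosen with earlier results of these data known.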

Additional observations from a re-analysis of the deposited data

Results flagged for a closer look

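For the splicing factors given here the difference between DOX and UT was itself different late (days 16 to 20) and early (days 12 and 14) in culture, tested as an interaction in edgeR with adjusted p under 0.05. As late minus early on the log2 scale, the difference shifted upward late for SF3B6 (1.07), PRPF39 (0.921), SRSF5 (0.877), LSM1 (0.871), SNRPG (0.765), SNRPA1 (0.724), SNRPF (0.693), SRSF8 (0.681), SF3B1 (0.582), SNRPC (0.576), SRSF9 (0.565), LSM6 (0.545), SRSF6 (0.504), SNRPD1 (0.493), SRSF1 (0.452), SF3A2 (0.415), SRSF7 (0.377) and LSM3 (0.363). It shifted downward late for PRPF38B (-1.43), SRSF11 (-1.01), PRPF4B (-0.988), PRPF8 (-0.465) and SF3A3 (-0.316). Of the 58, 31% shifted upward and 10.3% downward, beside 14.1% and 10.8% of all genes tested. With library sizes alone PRPF8 and SF3A3 turned to 0.50 and 0.65. The calls of LSM3, LSM6, SNRPD1, SRSF1, SRSF7, PRPF4B, PRPF8 and SF3A3 were each lost without 1 or another library. The days were split by the mitochondrial share, known from earlier results of these data. The change from day 12 to day 20 itself differed between the arms, by the same kind of test added after the data were seen, for PRPF39 (1.06), SF3B6 (0.88), SF3B1 (0.66), SRSF7 (0.621), PRPF38A (-0.557) and PRPF38B (-1.20), given as DOX less UT on the log2 scale. Of the 58, 6.9% were higher and 3.45% lower by that later test, beside 5.62% and 3.34% of all genes tested. PRPF38A was at 0.43 with library sizes alone. All of these calls but that of PRPF39 were lost without 1 or another library. The share of mitochondrial counts and the mast cell and eosinophil markers also separated the arms on the late days, and their part was not tested.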

How the results depend on the processing

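With library sizes alone the members called higher and lower were 55 and 2 averaged, 0 and 0 on day 12, 6 and 2 on day 14, 53 and 2 on day 16, 53 and 1 on day 18, 52 and 0 on day 20, 2 and 56 for UT day 20 against day 10, 2 and 56 for UT day 20 against day 12, 3 and 48 for DOX, 52 and 0 for late minus early and 46 and 0 for the course difference. With library sizes without mitochondrially encoded genes, an alternative chosen after seeing the data, they were 42 and 2, 0 and 0, 5 and 8, 32 and 3, 38 and 2, 37 and 2, 8 and 36, 11 and 31, 13 and 21, 32 and 3 and 12 and 0 in that order. Without the filter the averaged counts were 32 and 2 (all genes 17.1% and 12%), and on days 12 and 14 alone 8 and 0 (all genes 14.2% and 10.8%). For the course difference they were 5 and 4 without the filter, 7 and 6 with DESeq2's test and 9 and 4 with a replicate block. Shares of all genes are not given here for these counts or for the 12 and 0 above. The counts alone therefore do not show more for the splicing factors than for other genes. In the main fit they were 4 and 2 (6.9% and 3.45%), beside 5.62% and 3.34% of all genes. DESeq2 size factors gave 7 and 7 on day 14 (all genes 14.3% and 12.5%). DESeq2's test gave 8 and 10 there (all genes 16.8% and 15.1%) and 2 and 0 on day 12 (all genes 2.16% and 4.84%). The labels do not say whether replicate numbers pair the libraries. Correlations of deviations ran from -0.016 to 0.195 over 55 pairs of groups, 5 of them over 0.1, with a median of 0.038. Values this weak cannot settle the pairing. With a replicate block the counts were 33 and 5 averaged (all genes 30.5% and 23.6%). They were 2 and 0 on day 12 (all genes 1.56% and 3.17%) and 9 and 9 on day 14 (all genes 17.1% and 13%). Leaving out 1 library gave 31 to 33 and 2 to 5 averaged, 0 to 0 and 0 to 0, 5 to 7 and 0 to 7, 18 to 25 and 3 to 3, 12 to 21 and 2 to 5 and 9 to 22 and 0 to 6 on days 12 to 20, 12 to 13 and 20 to 25 and 14 to 18 and 18 to 21 in UT from days 10 and 12, 12 to 15 and 10 to 16 in DOX, 13 to 21 and 3 to 8 for late minus early and 1 to 6 and 0 to 5 for the course difference. Signs turned in the averaged comparison on days 12 and 14 alone for LSM1 -0.24, PRPF6 0.024, SF3B2 -0.053, SNRPF -0.011, SNRPG -0.084, SRSF2 -0.0082, SRSF5 -0.23, SRSF6 -0.17, SRSF9 -0.11, DDX46 0.15, CDC40 0.53, PDCD7 0.20, SNRNP48 0.27, SRPK2 0.37, SRRM1 0.20 and SON 0.068. The list above and those that follow hold only results given in the text. In each, the gene was called in 1 or both of the fits compared, so other signs also turned. On days 16, 18 and 20 alone the sign turned for SRRM2 -0.27. With library sizes alone it turned for LSM10 0.46, LSM5 0.47, PRPF3 0.35, PRPF38A 0.49, PRPF4B 0.39, PRPF6 0.35, SF3B5 0.49, SNRPB2 0.37, SRSF3 0.48, SRSF4 0.48, CDC40 0.026, PDCD7 0.019, SNRNP48 0.029, ZCRB1 0.063, SRRM1 0.037 and SON 0.070 averaged, PRPF38A 0.45, PRPF38B 0.0059 and SRSF11 0.069 on day 20, LSM2 -1.09, LSM3 -0.93, LSM4 -0.81, LSM5 -0.92, SNRPA -1.18 and SRSF3 -1.12 in the UT course, LSM2 -0.078 in the DOX course, PRPF8 0.50 and SF3A3 0.65 for late minus early and PRPF38A 0.43 for the course difference. The cause was not tested. With 2 libraries a group, the number of libraries limits the precision of single days. Where 1 library of a day was left out, smaller shares of all genes were called too on that day.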

Other observations

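With TMM scaling the highest group mean lay in a DOX group for 38 splicing factors and in a UT group for 20. The lowest lay in a UT group for 52 and in a DOX group for 6. UT also held day 10, which DOX lacked, and the same counts were not made over all genes. They depend on the scale, since with library sizes alone 56 of the 58 were called lower in UT on day 20 than on day 12. DOX on day 16 held the highest mean of 19 genes and DOX on day 14 that of 9, while UT on day 20 held the lowest mean of 20 and UT on day 12 that of 17. Between the highest and lowest group mean 39 genes differed at least 2-fold and 7 less than 1.5-fold. The widest pair of libraries in 1 group was that of LSM11 in UT on day 20, 3.76 and 10.9 CPM. Together, the 58 genes took 0.802% to 1.08% of the counts that were not mitochondrial in the 22 libraries.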
